A study of Mus musculus with 8 samples.

Results

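Collagen genes were taken as every protein-coding gene of GENCODE M21 on mm10 whose symbol reads Col, a number, the letter a and a number, which gave 44 of 21938 protein-coding genes. Their chromatin was followed by ATAC-seq, in which a transposase tags open DNA, in SN4741 cells, a mouse neural precursor line from embryonic substantia nigra. The comparison asked how open chromatin differed between 4 libraries of undifferentiated cells at the permissive 37 °C in 10% serum and 4 libraries of cells moved for 48 h to the non-permissive 39 °C in 0.5% serum. All 8 libraries came from the same line, reported to be clonal, which carries a temperature-sensitive T antigen driven by the tyrosine hydroxylase promoter at both temperatures. The line was found polyploid by karyotyping, with chromosome sets that varied from cell to cell. Temperature and serum changed together and cannot be told apart, and the labels do not say whether the replicates were separate cultures, so the tests measure the spread between these libraries.

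Collagens are proteins of the extracellular matrix whose chains wind into a helix. Fibrillar collagens pack into the ropes of bone, skin, tendon and cartilage, type IV forms the sheet of basement membranes, type VI forms beaded filaments, and the fibril-associated collagens decorate fibrils made by others. In the brain, fibrils are sparse and most collagen lies in basement membranes around vessels, where type IV is the main component. Fibrillar collagen genes are classically active in fibroblasts and other mesenchymal cells.

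Peaks had been called in each library separately, and the lists held between 74026 and 92013 peaks at 37 °C and between 54845 and 68410 at 39 °C. The caller kept 169, 64.2, 49.8 and 158 M fragments (M, mega) at 37 °C and 59.5, 71.2, 59.4 and 52.7 M at 39 °C, so 2 libraries at 37 °C were far deeper than the rest and the shallowest library of all was also at 37 °C. The lists hold no read counts, so each peak was described by its presence, its width and its percentile by −log10 q within its own list, where 100 is the strongest. Of the markers checked by promoter peaks, the neural precursor genes Sox2, Pax6, Nes and Msi1 were open in all 8 libraries, and Sox3 and Fabp7 had a promoter peak in none. Of 8 mesenchyme markers, 5 were open in all 8 libraries (Twist1, Twist2, Prrx1, Pdgfra and Pdgfrb) and Dcn, Lum and Thy1 were in none, and their promoter regions ranked higher at 39 °C for Twist1 and Prrx1 and at 37 °C for Pdgfra (limma), although within whole lists the Prrx1 promoter peak stood lower on average at 39 °C. Those of the precursor genes Sox2 and Nes ranked higher at 37 °C, and those of the neuronal Stmn2 and the endothelial Tek at 39 °C (limma). More bases were under peaks at 37 °C with groups apart in 0 of these 8 mesenchyme loci, 3 of 8 neural precursor, 2 of 5 neuron, 1 of 4 endothelium, 0 of 2 blood and 2 of 2 epithelium loci, beside 36.8% of coding loci with a peak, and at 39 °C in 0, beside 0.243%. Of the other markers, 4 of 5 were open in all 8 libraries for neurons, 1 of 4 for endothelium, 1 of 2 for blood and 0 of 2 for epithelium. In these bulk libraries, fewer cells with an open site and less access per cell cannot be told apart. The part of cell identity in the results below was not tested.

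Promoter peaks were called in all 8 libraries or in none for 37 of 44 collagen genes, beside 91.2% of coding genes. The length of chromatin under peaks was larger at 37 °C without overlap at 18 of the 44 collagen loci, beside 36.8% of coding loci with a peak. A promoter peak, one within 1 kb of an annotated start site, was called in all 8 libraries for 25 of 44 genes, beside 59.9% of coding genes, and in no library for 12, beside 31.3%. With a gene counted as open where at least 2 of 4 libraries called it, 30 genes were open at 37 °C and 28 at 39 °C, beside 67.2% and 62.9% of all coding genes. No collagen promoter was called in all 4 libraries of 1 temperature and none of the other, which 1.46% of coding genes were at 37 °C and 0.0137% at 39 °C. No coding gene passed Fisher's exact test after adjustment over all genes (smallest adjusted p 1), since 4 against 4 libraries allow no p below 0.0286. An unadjusted p under 0.05 was reached by 321 coding genes toward 37 °C, 3 toward 39 °C and 0 collagen genes.

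Open promoters were counted by class, with no test between classes. Of 11 fibrillar genes, 8 had a promoter peak in all 8 libraries and 0 lacked it in every library. Among 6 type IV genes, 4 were called in all 8 and Col4a3 and Col4a4 in none, and among 6 type VI genes 3 were called in all 8 and Col6a3, Col6a4 and Col6a6 in none. Of 9 fibril-associated genes, 3 were called in all 8 (Col12a1, Col14a1 and Col16a1) and Col9a1, Col19a1, Col20a1 and Col22a1 in none. The other closed promoters were those of Col10a1, a collagen of hypertrophic cartilage, of the transmembrane collagen Col25a1, and of Col28a1. The promoters of Col7a1, Col8a1, Col8a2, Col15a1, Col18a1, Col23a1 and Col26a1 were also called in all 8.

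The strength of the promoter peak varied widely between open collagen promoters. Over the 25 genes called in all 8 libraries the median percentile was 82.7, 80.4, 79.5 and 83.9 at 37 °C and 75.4, 72.7, 75.1 and 68.5 at 39 °C. Over all coding genes called in all 8 it was 90.6 to 92.2 at 37 °C and 87.0 to 89.4 at 39 °C. Percentiles within a whole list move with the length of the list, so these values were read as levels and not tested. The highest were Col5a1, a fibrillar chain that sets fibril diameter, at 98.6, 97.9, 96.6 and 98.3 against 96.9, 95.3, 95.4 and 95.7, and the pair Col4a1 and Col4a2. The lowest were Col11a2, a minor cartilage chain, at 46.6, 44.6, 33.8 and 53.2 against 26.1, 22.9, 14.2 and 4.64, then Col14a1, at 57.5, 49.9, 39.6 and 57.0 against 47.1, 42.9, 42.1 and 41.1, and Col26a1, at 57.5, 54.8, 54.3 and 61.2 against 45.2, 40.0, 42.1 and 38.7.

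**Figure D1:**
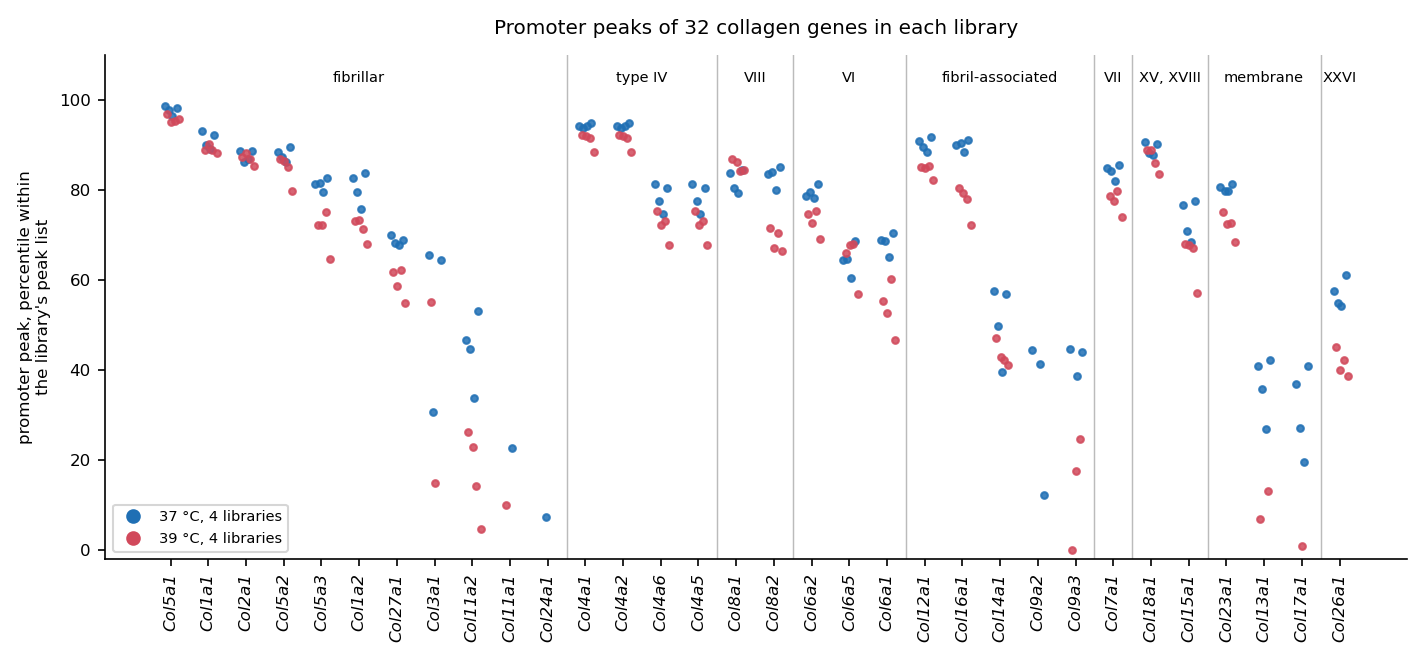
Each point is 1 library and gives the percentile of the promoter peak within that library's list (vertical axis, 0 to 100) for the 32 collagen genes with a promoter peak in at least 1 library, grouped by class; a missing point means no peak. Points at 39 °C mostly lie below those at 37 °C, except in Col8a1, with means of 82.0 at 37 °C and 85.5 at 39 °C, and in Col6a5, with 64.6 and 64.7.

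In 7 genes the promoter was called in some libraries only. Col13a1 and Col17a1, which encode transmembrane collagens, were called in 4 of 4 libraries at 37 °C and in 2 and 1 of 4 at 39 °C. The Col17a1 peak stood at percentiles 36.8, 27.0, 19.5 and 40.9 at 37 °C and at 0.794 in the only library at 39 °C that had it. Col13a1 stood at 40.9, 35.8, 26.8 and 42.2 at 37 °C and at 6.78 and 13.1 at 39 °C. Col9a2, a cartilage chain, was called in 3 libraries at 37 °C and 0 at 39 °C, at percentiles 44.4, 41.2 and 12.1. Col3a1 was called in 3 and 2 libraries, Col9a3 in 3 and 3, Col11a1 in 1 and 1 and Col24a1 in 1 and 0. The lists at 39 °C were also shorter. With equal numbers of peaks in every list, 30 collagen genes were open in at least 2 libraries at 37 °C and 26 at 39 °C, and 1 gene was called in 4 against 0.

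Peaks over collagen loci covered more sequence at 37 °C. A locus was the gene body with 10 kb on each side, and the 44 loci together held 358, 334, 312 and 394 peaks at 37 °C against 277, 274, 280 and 235 at 39 °C. Set against the length of the lists the numbers were alike, at 42.4, 43.4, 42.1 and 42.8 per 10000 peaks against 42.1, 42.0, 40.9 and 42.8. The bases under those peaks came to 556, 427, 360 and 539 kb at 37 °C and 347, 323, 302 and 235 kb at 39 °C. As a share of all bases under peaks in the same library this was 0.417%, 0.415%, 0.401% and 0.421% against 0.390%, 0.380%, 0.373% and 0.359%. The groups did not overlap on that share, although the number of peaks per 10000 did overlap.

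By gene, the covered length was larger in every library at 37 °C than in any at 39 °C for 18 of 44 collagen genes, beside 36.8% of coding genes with a peak in the locus, and was larger at 39 °C for 0, beside 0.243%. More peaks at 37 °C without overlap were found in 13 genes, beside 18.8%, and more at 39 °C in 1 gene, Col1a1, beside 0.384%. The promoter peak was wider at 37 °C without overlap in 7 of 25 genes, beside 23.4%, and wider at 39 °C in 0, beside 0.129%. No gene passed after Benjamini-Hochberg adjustment over all coding genes, with smallest adjusted exact permutation p-values among collagen genes of 0.0772 for covered length, 0.149 for number of peaks and 0.122 for promoter width. The smallest p that 70 assignments allow is 0.0286, which each of the 18 genes reached before adjustment for covered length. The median fold of mean covered length, 37 °C over 39 °C, was 1.46 over 44 collagen genes and 1.32 over 17112 coding genes. With equal numbers of peaks per list, as many as the shortest list holds, the medians were 1.35 and 1.21, and without the 2 deep libraries at 37 °C, in the 6 shallower libraries, they were 1.26 and 1.14.

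**Figure D2:**
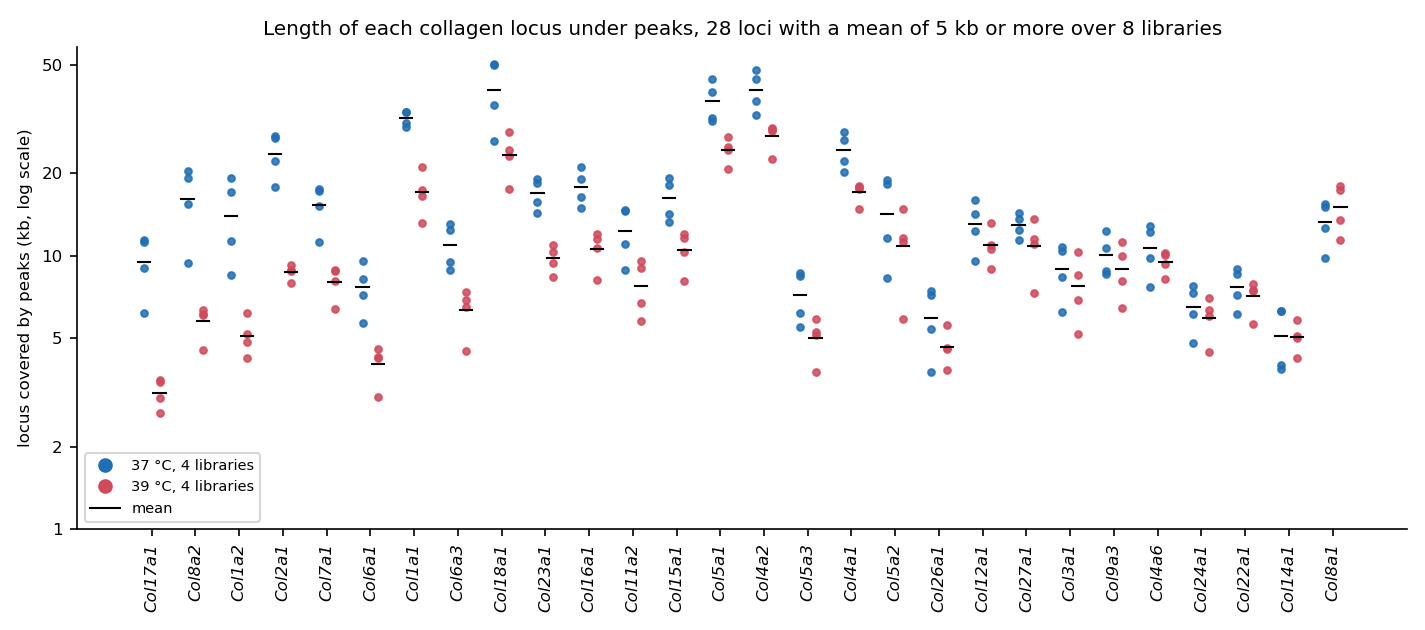
Each point is 1 library and gives the kilobases of a locus (gene body with 10 kb on each side) under peaks, on a log axis, and the black bar is the mean of 4 libraries; the 28 loci with a mean of at least 5 kb over all 8 libraries are ordered by the fold between means. Col17a1, Col8a2, Col1a2 and Col2a1 are farthest apart, and Col8a1 at the right is the only one of the 28 with a higher mean at 39 °C.

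The type I genes, which encode the main collagen of bone, skin and tendon, differed most visibly in the shape of their peaks. At Col1a1 (ENSMUSG00000001506.10, chr11:94936224-94953042, plus strand) the promoter peak measured 24703, 18881, 5794 and 24672 bp at 37 °C and 3140, 3082, 2926 and 3010 bp at 39 °C. In replicates 1 and 4 at 37 °C a single peak ran from 4.25 kb before the 5′ end to more than 20.4 kb after it, past the end of the gene, and replicates 2 and 3 had the same stretch cut into 2 and 3 peaks. At 39 °C that stretch was broken into short peaks, so the locus held 12, 12, 11 and 9 peaks against 6, 6, 7 and 5 at 37 °C, and the larger number of peaks went with the smaller covered length. The covered length was 33.6, 30.6, 29.6 and 33.6 kb at 37 °C and 21.1, 16.6, 17.3 and 13.1 kb at 39 °C, or 31.8 ± 2.06 kb against 17.0 ± 3.27 kb (SD, n = 4; exact permutation p = 0.0286, adjusted p = 0.0772). Replicate 3 at 37 °C, with 29.6 kb covered, was the library with the fewest fragments. The part of depth and list length in this difference was not tested.

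The region over Col1a1, which joins the peaks of all libraries, had similar ranks at both temperatures. In each library it was ranked by its strongest peak, so its rank is not that of the promoter peak alone. Ranked among the 44861 regions called in all 8 libraries, the region over the gene had mean percentiles of 84.3 at 37 °C and 84.8 at 39 °C (adjusted p = 0.697, limma). The region upstream of it, chr11:94926216-94930953 with its summit at -7234 bp from the nearest start site, stood at 91.5, 91.3, 90.5 and 91.3 at 37 °C and at 83.8, 81.9, 84.4 and 82.0 at 39 °C, a rank that fell by 8.10 points (SE 0.669, adjusted p = 5.01e-06, limma). The groups lay well apart. The summit with 100 bases on each side is shown because this type I element had the smallest p, with matches to GGAATG (TEAD) and GGGCGG (SP/KLF) in capitals.
Col1a1 upstream region, chr11:94928890-94929090, plus strand: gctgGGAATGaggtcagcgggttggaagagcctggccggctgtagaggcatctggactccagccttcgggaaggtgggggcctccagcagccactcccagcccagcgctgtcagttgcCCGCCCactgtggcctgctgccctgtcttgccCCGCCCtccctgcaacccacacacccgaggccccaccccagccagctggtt

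Col1a2 (ENSMUSG00000029661.16, chr6:4504814-4541544, plus strand), the partner chain of Col1a1, lost most of the peaks along its body at 39 °C. Its locus held 15, 10, 9 and 17 peaks at 37 °C and 5, 3, 3 and 3 at 39 °C, with 19.2, 11.3, 8.50 and 17.1 kb covered against 6.15, 5.18, 4.82 and 4.23 kb. The fold of means was 2.75 with 8 libraries, 1.94 with the 6 shallower libraries and 1.74 with equal numbers of peaks per list. All 3 of its regions called in every library ranked higher at 37 °C, among them the promoter region at 67.5, 65.7, 61.5 and 67.3 against 61.7, 62.5, 57.9 and 62.3 (fell by 4.38 points, SE 1.60, adjusted p = 0.0456, limma). Its values overlapped between temperatures, since replicate 3 at 37 °C lay below 3 libraries at 39 °C. A further 3 regions in its locus were called in all 4 libraries at 37 °C and none at 39 °C. The RefSeq promoter of Col1a2 on GRCm38.p6 is shown because this promoter is well known for binding of NFY at CCAAT boxes, with CCAAT (NFY) and GGGCGG (SP/KLF) matches on either strand in capitals. It lies inside the gene as GENCODE annotates it, downstream of the 5′ end at 4504814.
Col1a2 promoter, chr6:4505368-4505667, plus strand: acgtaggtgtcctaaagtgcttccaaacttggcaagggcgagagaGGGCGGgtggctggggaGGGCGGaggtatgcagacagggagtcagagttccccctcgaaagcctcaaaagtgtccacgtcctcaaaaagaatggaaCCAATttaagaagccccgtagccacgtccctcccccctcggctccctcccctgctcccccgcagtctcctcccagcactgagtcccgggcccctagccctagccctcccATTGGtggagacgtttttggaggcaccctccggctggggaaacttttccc

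Among the other fibrillar genes, Col2a1, the main collagen of cartilage, had 13, 12, 14 and 13 peaks in its locus at 37 °C and 6, 5, 5 and 6 at 39 °C. The covered length was 26.9, 22.2, 17.8 and 27.4 kb against 8.87, 9.28, 7.92 and 8.8 kb, a fold of 2.70, or 2.3 with the 6 shallower libraries and 2.04 with equal numbers of peaks. Among the common regions its promoter region ranked higher at 39 °C, at 81.8, 83.1, 80.5 and 82.6 against 78.9, 76.6, 78.8 and 77.0 (a difference of 4.17 points, SE 0.837, adjusted p = 0.00196, limma). Within whole lists the means of the same region went the other way, at 87.6 at 37 °C and 87.0 at 39 °C. At Col2a1, 2 regions downstream of the gene were called in all 4 libraries at 37 °C only. Col5a1 had 23, 23, 22 and 25 peaks at 37 °C against 12, 13, 16 and 14, and 44.3, 32.0, 31.1 and 39.7 kb covered against 27.2, 24.9, 24.3 and 20.8 kb. Its promoter region ranked at 97.4, 96.4, 94.4 and 96.5 against 95.5, 93.2, 93.1 and 94.8 (fell by 2.04 points, SE 0.731, adjusted p = 0.0418, limma), with overlap. Col5a1 held 5 regions restricted to 37 °C, the most of any collagen gene.

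Col3a1, the chain of type III collagen that often accompanies type I, did not follow this pattern. Its locus held 6, 7, 7 and 5 peaks at 37 °C and 5, 7, 7 and 6 at 39 °C, with 10.4, 8.38, 6.23 and 10.8 kb covered against 10.3, 8.51, 6.87 and 5.18 kb. The groups overlapped, and with the 6 shallower libraries the mean was 0.409 kb larger at 39 °C. Of its 5 regions called in every library 2 ranked higher at 39 °C and 0 at 37 °C, one of them over an exon (54.1 against 46.0, adjusted p = 0.0131, limma). Within whole lists both had lower means at 39 °C, the exon region at 66.3 against 69.4 at 37 °C. Col5a2, the neighbour of Col3a1 on chromosome 1, had covered lengths of 18.9, 11.6, 8.28 and 18.2 kb against 14.8, 11.6, 11.2 and 5.84 kb, which overlapped. For Col5a3, Col11a2 and Col27a1 the covered lengths overlapped as well, at folds of 1.44, 1.59 and 1.19, although 2 of their promoter regions ranked higher at 37 °C. That of Col5a3 stood at 65.1, 69.2, 67.1 and 65.0 against 60.5, 60.7, 63.3 and 58.6 (adjusted p = 0.0054, limma) and that of Col11a2 at 9.02, 14.3, 8.62 and 12.6 against 6.29, 5.33, 1.53 and 3.05 (adjusted p = 0.0127, limma), without overlap. Col11a1 and Col24a1 had covered lengths of at most 0.971 kb and 7.73 kb in any library, with overlap.

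**Figure D3:**
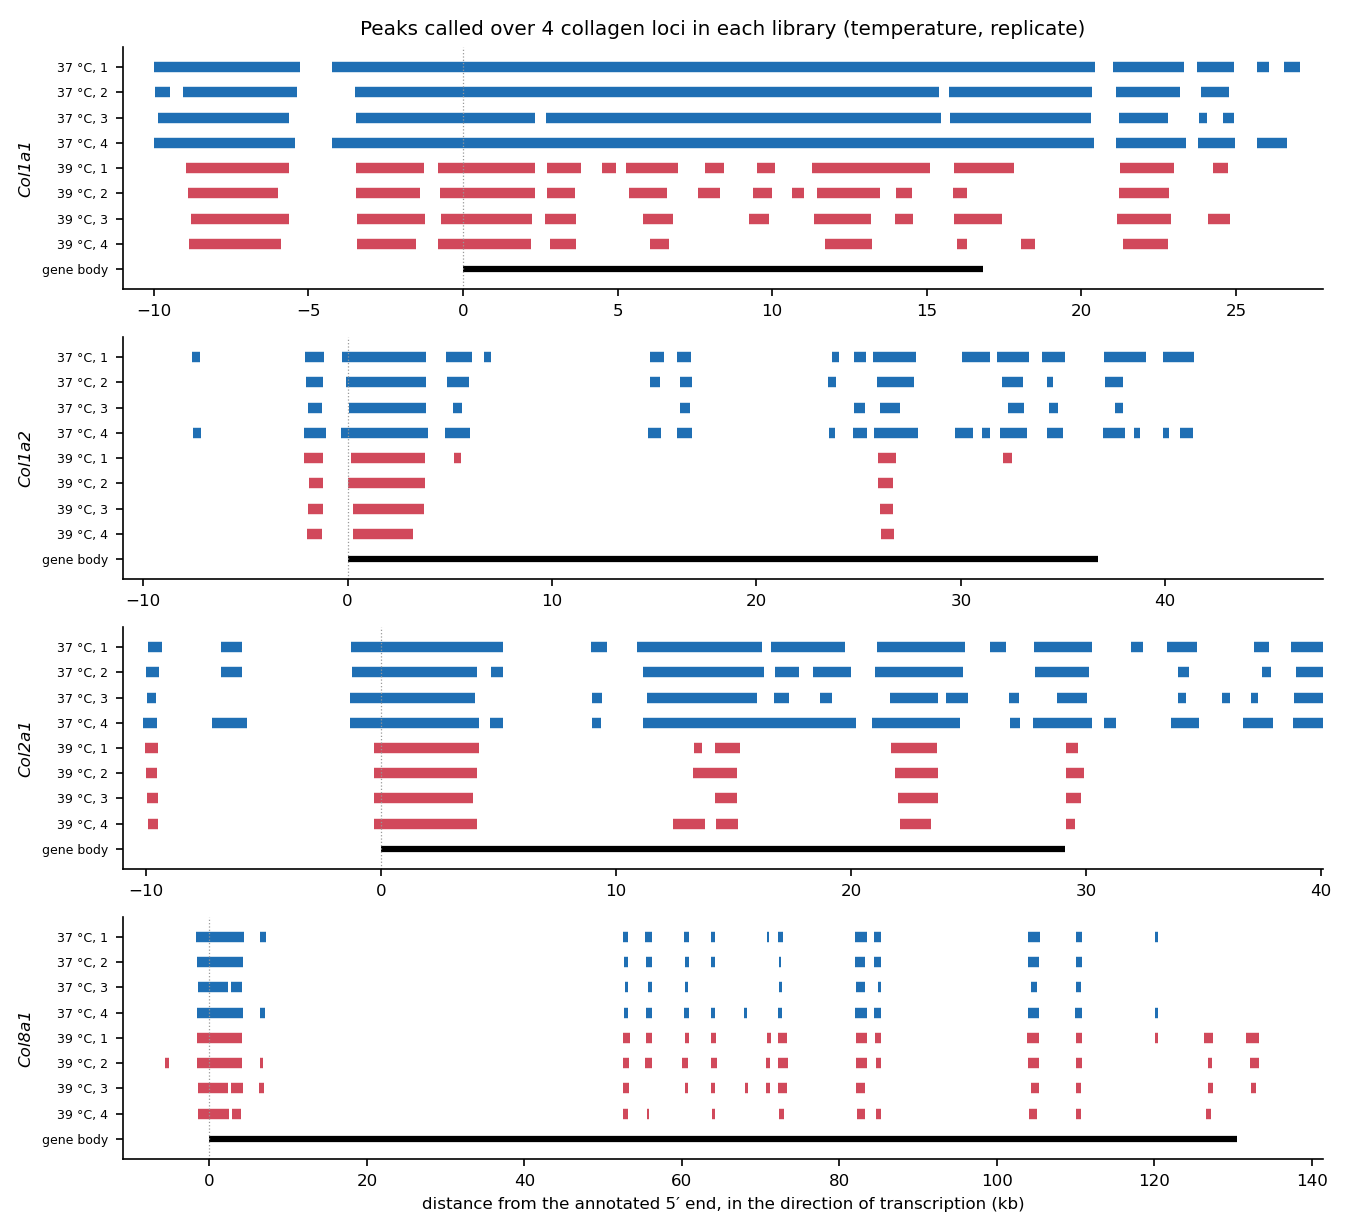
Bars are the peaks called in each of the 8 libraries (rows) against distance from the annotated 5′ end in kilobases, with the gene body in black, for Col1a1, Col1a2, Col2a1 and Col8a1. Peaks at 37 °C form long blocks over Col1a1 and extra peaks along Col1a2 and Col2a1, while at Col8a1 the 2 temperatures share most peaks and those near the far end of the gene are at 39 °C only.

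The type IV genes lie in head-to-head pairs, and their peaks were shared within a pair. The nearest start sites of Col4a1 and Col4a2 are 21 bp apart, and 1 peak covered both in every library, at percentiles 94.3, 93.9, 94.2 and 94.9 at 37 °C and 92.4, 92.0, 91.6 and 88.5 at 39 °C. Its rank among common regions fell by 2.03 points (SE 0.657, adjusted p = 0.027, limma), and all 4 libraries at 37 °C lay above those at 39 °C. The Col4a1 locus had 28.4, 22.1, 20.3 and 26.4 kb covered against 17.8, 18.1, 17.6 and 14.8 kb, and Col4a2 had 47.7, 36.7, 32.7 and 44.4 kb against 28.5, 29.1, 29.3 and 22.5 kb, so the groups were apart at both genes. Of 12 regions tested at Col4a1, 6 ranked higher at 37 °C and 1 at 39 °C, and at Col4a2 the numbers were 7 and 1 of 14, with 2 regions common to both loci. The 5′ ends of the pair overlap, so the RefSeq promoter of Col4a1 runs into the start of Col4a2, and it is shown because the same peak covers both starts, with CCAAT and GGGCGG matches in capitals.
Col4a1 promoter, chr8:11312777-11313076, minus strand: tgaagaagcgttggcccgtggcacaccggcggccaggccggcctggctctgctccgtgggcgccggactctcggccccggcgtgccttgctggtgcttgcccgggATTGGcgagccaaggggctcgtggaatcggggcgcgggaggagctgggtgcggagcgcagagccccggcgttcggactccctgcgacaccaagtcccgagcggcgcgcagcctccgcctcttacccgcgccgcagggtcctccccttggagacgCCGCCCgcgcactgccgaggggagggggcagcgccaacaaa

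Col4a5 and Col4a6, on the X chromosome with nearest start sites 1309 bp apart, also shared a promoter peak, at 81.4, 77.6, 74.6 and 80.5 against 75.3, 72.3, 73.1 and 67.8, and their covered lengths overlapped between temperatures. Col4a5 had 6.33, 4.31, 3.77 and 5.66 kb against 4.10, 3.87, 3.53 and 3.17 kb, and Col4a6 had 12.2, 9.80, 7.68 and 12.8 kb against 10.2, 10.1, 9.28 and 8.22 kb. Col4a3 and Col4a4, the chains found with Col4a5 in kidney basement membrane, had no promoter peak in any library although their start sites are 72 bp apart. Col4a3 had 2.69, 2.29, 1.91 and 2.49 kb covered at 37 °C and 2.80, 2.58, 2.70 and 1.94 kb at 39 °C, 1 of the 2 collagen genes whose mean was higher at 39 °C (4 with equal numbers of peaks, 12 in the 6 shallower libraries), and Col4a4 had 0.525 to 1.32 kb against 0.609 to 1.14 kb. Type IV thus showed 1 closed pair and 2 open pairs at both temperatures.

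Of the type VI genes, Col6a1 and Col6a2, whose products assemble with that of Col6a3, both had more bases covered at 37 °C without overlap. Col6a1 had 9.56, 7.17, 5.64 and 8.2 kb against 4.55, 4.27, 4.21 and 3.03 kb, and its promoter peak measured 1819, 1915, 1613 and 1853 bp against 1256, 1503, 1330 and 1041 bp. Col6a2 had 3.90, 3.61, 3.24 and 3.69 kb against 2.12, 1.97, 1.45 and 1.06 kb. Col6a3 had no promoter peak in any library, and yet its locus held 9, 7, 8 and 10 peaks at 37 °C and 7, 6, 7 and 6 at 39 °C, with 13.1, 9.51, 8.85 and 12.5 kb covered against 7.36, 6.89, 6.48 and 4.47 kb. Among the genes of the less widespread chains, Col6a5 had a promoter region that ranked higher at 39 °C, at 51.6, 54.7, 53.1 and 49.9 against 33.8, 41.5, 38.1 and 37.1 (14.7 points, SE 2.03, adjusted p = 0.000154, limma). That region lay in an intron at an annotated internal start site, and within whole lists its means were 64.6 at 37 °C and 64.7 at 39 °C. Covered lengths overlapped in Col6a5, in Col6a4 (5.22, 4.02, 3.45 and 4.95 kb against 3.66, 3.77, 3.01 and 2.07 kb) and in Col6a6 (1.86, 1.21, 1.24 and 1.55 kb against 1.26, 1.11, 1.40 and 0.670 kb).

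The 2 type VIII genes, which encode short-chain collagens of vessel walls and of the cornea, went in opposite directions. At Col8a2 the locus held 13, 13, 7 and 15 peaks at 37 °C and 6, 5, 6 and 6 at 39 °C, with 19.2, 15.5, 9.37 and 20.4 kb covered against 6.33, 6.14, 6.05 and 4.50 kb. Its stronger promoter region, at an internal start site, ranked at 69.3, 73.1, 67.9 and 69.6 against 59.5, 53.6, 56.6 and 60.8 (fell by 12.4 points, SE 1.69, adjusted p = 0.000148, limma). At Col8a1 the promoter region chr16:57750325-57756425 ranked at 69.6, 67.0, 67.0 and 68.5 at 37 °C and at 81.1, 80.2, 76.8 and 81.3 at 39 °C, 11.8 points higher (SE 1.14, adjusted p = 1.3e-05, limma). The groups did not overlap in either gene. Col8a1 had 15.5, 12.6, 9.80 and 15.0 kb covered against 17.9, 17.4, 13.5 and 11.5 kb, which overlapped, at a fold of 0.879. The RefSeq promoter of Col8a1 is shown because it lies within this region, although not at its summit, with GGGCGG (SP/KLF) and TGTGGT (RUNX, found in 15.3% of coding promoters) matches in capitals.
Col8a1 promoter, chr16:57754688-57754987, minus strand: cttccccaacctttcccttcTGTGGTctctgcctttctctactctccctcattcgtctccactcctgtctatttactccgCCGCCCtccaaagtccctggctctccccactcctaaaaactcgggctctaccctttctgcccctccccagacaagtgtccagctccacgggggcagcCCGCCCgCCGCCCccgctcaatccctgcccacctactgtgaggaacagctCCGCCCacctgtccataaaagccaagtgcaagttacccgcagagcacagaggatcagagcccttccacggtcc

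Among fibril-associated collagens, Col16a1 had the widest shift of a promoter region. Its promoter region chr4:130047030-130051692 ranked at 81.5, 83.7, 81.2 and 81.8 at 37 °C and at 72.0, 70.6, 69.9 and 70.3 at 39 °C (fell by 11.4 points, SE 0.837, adjusted p = 2.62e-06, limma), and 6 of the 7 regions tested in its locus ranked higher at 37 °C with 0 at 39 °C. Its covered length was 21.0, 16.3, 15.0 and 19.1 kb against 12.0, 11.5, 10.7 and 8.16 kb. Col12a1, by contrast, had 11, 9, 9 and 11 peaks against 12, 11, 10 and 9 and overlapping covered lengths, although its promoter region, at 82.9, 82.3, 81.2 and 83.3 against 78.8, 78.4, 78.2 and 78.9, fell by 3.87 points (SE 0.673, adjusted p = 0.000773, limma). Col14a1 had 4 of 5 tested regions ranked higher at 39 °C and 0 at 37 °C, all in introns, 1 of which had a higher mean at 39 °C within whole lists, and a promoter peak that overlapped in percentile. Col9a2 and Col19a1 had more bases covered at 37 °C without overlap, although for Col19a1 the values were only 0.527 to 0.608 kb against 0.474 to 0.514 kb, and Col9a1, Col9a3, Col20a1 and Col22a1 overlapped.

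Of the remaining classes, Col7a1, the anchoring fibril of skin, had 17.6, 15.2, 11.2 and 17.2 kb covered against 8.84, 8.75, 8.10 and 6.38 kb, and a promoter region, the weaker of 2, that fell by 16.6 points (46.8, 37.7, 45.5 and 38.9 against 29.7, 20.8, 24.4 and 27.3, SE 2.77, adjusted p = 0.000572, limma). Its stronger promoter region did not pass (69.3 at 39 °C against 71.7, adjusted p = 0.0532, limma). Both multiplexins, Col15a1 and Col18a1, the source of endostatin, had more peaks at 37 °C without overlap, at 16, 14, 14 and 19 against 11, 10, 11 and 8 for Col15a1 and 30, 31, 25 and 33 against 24, 20, 21 and 16 for Col18a1. Each also had a promoter region that ranked higher at 37 °C, at 38.9, 45.5, 40.4 and 37.5 against 35.5, 28.6, 28.8 and 34.7 for Col15a1 (adjusted p = 0.0154, limma) and at 38.5, 35.9, 36.4 and 36.1 against 22.4, 24.0, 21.5 and 29.1 at an internal start site of Col18a1 (adjusted p = 0.000817, limma), while the region at the 5′ end of Col18a1 did not pass (80.8 against 81.9, adjusted p = 0.494, limma). The covered lengths of Col18a1 overlapped, since replicate 3 at 37 °C had 26.2 kb and replicate 1 at 39 °C had 28.4 kb. Col17a1 had 11.2, 9.04, 6.18 and 11.4 kb covered against 3.50, 3.46, 2.64 and 3.00 kb, a fold of 3.01, and Col23a1 19.0, 15.7, 14.3 and 18.4 kb against 11, 10.3, 9.41 and 8.33 kb. Col28a1 was covered over at most 1.14 kb in any library, without overlap, and Col10a1, Col13a1, Col25a1 and Col26a1 overlapped.

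Single regions in the collagen loci moved in both directions. The loci held 365 regions called in at least 2 libraries, 252 with the summit in an intron, 29 in an exon, 41 upstream and 43 downstream of the gene. Of the 196 called in all 8 libraries, 66 (33.7%) ranked higher at 37 °C and 37 (18.9%) higher at 39 °C at an adjusted p under 0.05 (limma), beside 21.5% and 18.1% of such regions in the loci of all coding genes. The median difference, 39 °C minus 37 °C, was -1.29 points in collagen loci and -0.187 over all coding loci. Ranking within the whole lists gave 131 and 3 collagen regions instead. The 66 regions all had higher whole-list means at 37 °C, and of the 37 regions 15 had higher whole-list means at 39 °C and 22 at 37 °C. A promoter region ranked higher at 37 °C in 12 of 44 genes and at 39 °C in 3, beside 11.7% and 7.62% of coding genes. Of 44 genes, 26 had at least 1 region ranked higher at 37 °C, 23 had at least 1 ranked higher at 39 °C and 14 had both. The shares of coding genes with such regions were not counted, so these numbers cannot be read as particular to collagens.

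Regions called in all 4 libraries of 1 temperature and 0 of the other numbered 23 at 37 °C (6.30%), beside 6.37% over coding loci, and 2 at 39 °C (0.548%), beside 0.225%. The share at 37 °C was thus near that of all coding loci. None passed adjustment (smallest adjusted p 0.45, Fisher's exact test), since 4 against 0 gives p = 0.0286. The best ranked at 37 °C were an element at -2360 bp from the start of Col6a1 (chr10:76727954-76729047, percentiles 45.9, 35.8, 34.8 and 47.7), introns of Col5a1 (chr2:27905244-27906124) and Col15a1 (chr4:47227593-47228433), and a region at -5708 bp from the start of Col7a1 (chr9:108947353-108948285) that lay at the promoter of the neighbouring gene Uqcrc1. The 2 at 39 °C were an intron of Col14a1 (chr15:55493177-55493722, percentiles 41.8, 43.7, 42.1 and 40.3) and an exon of Col8a1 (chr16:57627310-57628446, percentiles 11.9, 9.04, 1.62 and 3.28). Of these, the Col14a1 element was the stronger, near the middle of each list at 39 °C.

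**Figure D4:**
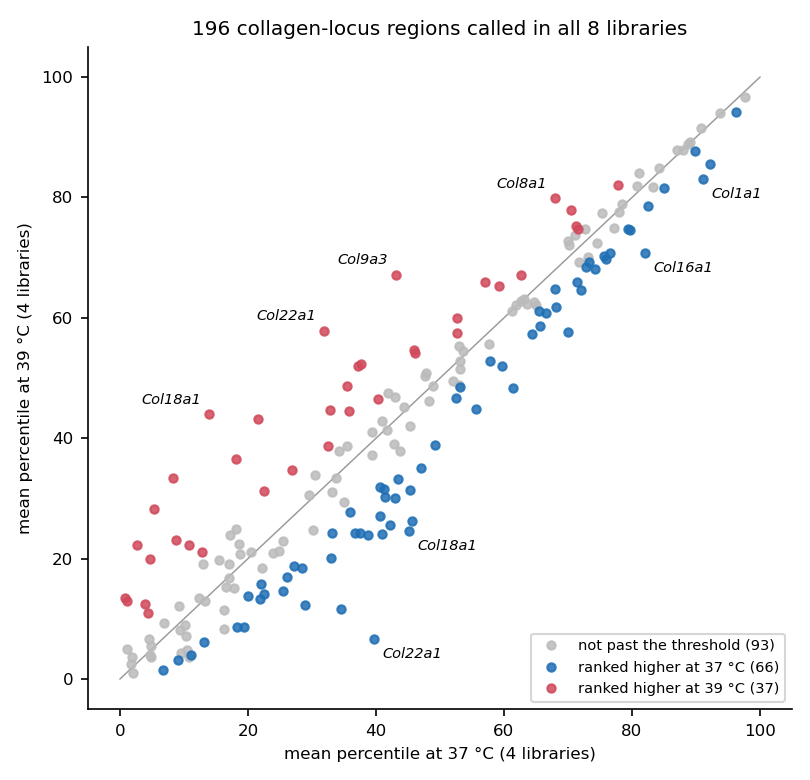
Each point is 1 of the 196 collagen-locus regions called in all 8 libraries, by its mean percentile among common regions at 37 °C (horizontal) and at 39 °C (vertical), 4 libraries each; blue points ranked higher at 37 °C (66), red points higher at 39 °C (37) and grey points passed in neither direction (93). Names mark the 4 regions with the smallest p in each direction, and Col18a1 and Col22a1 have 1 on each side of the diagonal.

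Within the same gene, regions could move in opposite directions. In Col22a1, a collagen of tissue junctions whose promoter was closed in every library, an intron region at chr15:71849687-71850961 ranked at 43.2, 39.8, 35.5 and 40.1 at 37 °C and at 2.39, 4.49, 9.57 and 9.96 at 39 °C (fell by 33.1 points, SE 2.49, adjusted p = 2.91e-06, limma). A second intron region of Col22a1 at chr15:72000650-72002239 ranked at 30.7, 34.6, 32.6 and 29.7 against 58.4, 60.9, 54.7 and 57.5 (26.0 points higher at 39 °C, SE 1.93, adjusted p = 2.72e-06, limma). In neither did the groups overlap. In Col18a1 an intron region at chr10:77134666-77135677 fell by 20.5 points (45.2 against 24.6, SE 2.4, adjusted p = 5.08e-05, limma) and one at chr10:77084178-77085277 was 30.0 points higher at 39 °C (44.0 against 13.9, SE 2.74, adjusted p = 9.29e-06, limma). Ranked within whole lists, the differences of these regions toward 39 °C were smaller. The second Col18a1 region lost its call (10.4 points, adjusted p = 0.0641, limma), and the second Col22a1 region stood 7.85 points higher (adjusted p = 0.0412, limma). In Col9a3, a cartilage chain, an intron region at chr2:180609758-180612416 was 24.1 points higher at 39 °C (67.2 against 43.1, SE 1.98, adjusted p = 4.90e-06, limma), or 8.37 points within whole lists (adjusted p = 0.0144, limma). For the Col8a1 promoter region the difference within whole lists was 3.41 points (adjusted p = 0.0345, limma).

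The summits of these regions with 100 bases on each side are shown on the plus strand of mm10 as examples of intron elements that moved in each direction. Capitals mark matches on either strand to TGANTCA (AP-1), GGAATG (TEAD), TGTGGT (RUNX), CCAAT (NFY), GGGCGG (SP/KLF) and the p53 decamer, and none of these motifs contains another.
Col22a1 intron, higher at 37 °C, chr15:71850368-71850568: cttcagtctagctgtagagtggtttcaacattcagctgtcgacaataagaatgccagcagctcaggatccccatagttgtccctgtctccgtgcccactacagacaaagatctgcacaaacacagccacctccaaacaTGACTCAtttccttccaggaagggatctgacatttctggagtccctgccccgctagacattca
Col18a1 intron, higher at 37 °C, chr10:77135354-77135554: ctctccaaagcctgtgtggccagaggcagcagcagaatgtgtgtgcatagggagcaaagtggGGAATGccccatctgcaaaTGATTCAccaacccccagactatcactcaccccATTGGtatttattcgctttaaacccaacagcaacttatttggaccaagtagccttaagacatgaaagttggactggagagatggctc
Col22a1 intron, higher at 39 °C, chr15:72001465-72001665: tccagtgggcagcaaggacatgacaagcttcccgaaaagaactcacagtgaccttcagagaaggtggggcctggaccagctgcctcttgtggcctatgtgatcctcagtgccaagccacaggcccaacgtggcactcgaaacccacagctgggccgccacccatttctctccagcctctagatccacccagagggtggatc
Col9a3 intron, higher at 39 °C, chr2:180611032-180611232: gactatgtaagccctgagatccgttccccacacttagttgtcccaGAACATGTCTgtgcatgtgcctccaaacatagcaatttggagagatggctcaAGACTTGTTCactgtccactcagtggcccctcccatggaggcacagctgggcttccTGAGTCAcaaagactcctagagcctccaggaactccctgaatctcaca

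An AP-1 match stood in 3 of these 4 windows, the Col18a1 window also held GGAATG and CCAAT, and the Col9a3 window held 2 p53 decamers. Over all collagen regions, windows of the same length with TGANTCA made up 47.0% of the 66 ranked higher at 37 °C and 35.1% of the 37 ranked higher at 39 °C, against 29.0% of 84777 consensus regions. GGAATG was in 28.8% and 8.11% of them, against 16.9%. CCAAT was in 19.7% and 21.6%, against 22.6%, and GGGCGG in 13.6% and 10.8%, against 14.7%. TGTGGT went the other way, in 16.7% and 43.2%, against 24.5%, and the p53 decamer was in 4.55% and 16.2%, against 7.27%. In all regions of the genome that ranked higher at 37 °C or at 39 °C the shares were 34.9% and 38.0% for TGANTCA, 22.5% and 16.2% for GGAATG, 24.6% and 30.9% for TGTGGT, 5.17% and 11.1% for the p53 decamer, 22.9% and 21.9% for CCAAT and 16.7% and 11.9% for GGGCGG. Over all 365 collagen regions they were 34.8% for TGANTCA, 21.6% for GGAATG, 26.6% for TGTGGT, 8.49% for the p53 decamer, 20.8% for CCAAT and 9.86% for GGGCGG. The differences between the 2 directions had the same sign in collagen loci and in the whole genome for the TEAD, RUNX, p53 and SP/KLF motifs and not for the AP-1 and NFY motifs. In collagen loci the counts are small, at 19 and 3 regions for GGAATG, 11 and 16 for TGTGGT and 3 and 6 for the p53 decamer. They are 9 and 4 for GGGCGG, 13 and 8 for CCAAT and 31 and 13 for TGANTCA. A sign that rests on so few regions may not hold. These are letter matches, given as a description with no test.

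Median base composition was unlike in open and closed collagen promoters, as in those of coding genes at large, and was not tested. Composition was read in the window from 250 bases before to 50 after the annotated 5′ end. Promoter peaks were counted at any annotated start site, so for some genes this window is not the called site. At the 5′ end alone, 28 genes were open in at least 2 libraries at 37 °C and 25 at 39 °C, against 30 and 28. The 25 genes called in all 8 libraries had a median G and C content of 61.7% and a median ratio of observed to expected CpG of 0.543. The 12 genes called in none had 51.2% and 0.407. The 7 genes called in some libraries had 52.3% and 0.192. Ranges overlapped, at 37% to 75% G and C in the 25 genes and 41.7% to 64.7% in the 12. For the CpG ratio they were 0.102 to 0.902 and 0 to 0.592. Coding genes called in all 8 had 59.7% and 0.736 and those called in none 45.7% and 0.181, a wider gap than among collagens, and open collagen promoters had a lower CpG ratio than open coding promoters at a similar G and C content. GGGCGG was found in 19 of the 25 open, 1 of the 7 partly called and 3 of the 12 closed collagen promoters, against 60.3% of open and 12.5% of closed coding promoters and 43.0% of all. CCAAT was found in 11, 4 and 2 of them, against 38.5%, 41.3% and 39.0%. TATAAA was found in 2, 3 and 1, against 7.30%, 22.8% and 12.6%. For Col1a2 the window counted here is not the RefSeq window printed above, and it holds 1 CCAAT and 0 GGGCGG. The RefSeq promoter table matched 35 of the 44 genes and not Col1a1, Col2a1, Col4a3, Col5a2, Col9a3, Col12a1, Col14a1, Col22a1 and Col26a1.

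Of a list of 40 genes that act on collagen, 34 had a promoter peak in all 8 libraries, beside 25 of 44 collagen genes and 59.9% of coding genes, and 3 had none (Adamts3, Mmp8 and Mmp13). The difference between the lists was not tested. All 18 genes of chain maturation (hydroxylases, chaperones and Sparc) were open in every library, as were 8 of 10 for processing and cross-linking, 5 of 7 receptors and 3 of 5 collagenases and gelatinases. A promoter region ranked higher at 37 °C in 9 of the 40 genes and at 39 °C in 3 (limma), beside the same 11.7% and 7.62%. Serpinh1, the chaperone specific to collagen, was among the 9, with a promoter peak at percentiles 90.5, 89.1, 88.2 and 90.9 against 83.0, 82.6, 83.7 and 77.2. Ddr2, a receptor for fibrillar collagen, was another, at 73.4, 69.0, 69.9 and 74.2 against 38.3, 42.1, 39.6 and 37.8. Itga10, an integrin chain that binds collagen, had a promoter peak in all 4 libraries at 37 °C and 0 at 39 °C. The 3 ranked higher at 39 °C were P4ha2, P3h1 and Mmp14, which encode a prolyl 4-hydroxylase chain, a prolyl 3-hydroxylase and a membrane collagenase. Within whole lists their strongest promoter peaks stood lower on average at 39 °C, as for Mmp14 at 89.3, 86.6, 85.7 and 89.4 against 86.6, 87.8, 86.9 and 84.2. More of the locus was covered at 37 °C without overlap in 24 of the 40 genes and at 39 °C in 0, beside 36.8% and 0.243% of coding genes with a peak in the locus.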

How the data were processed

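ATAC-seq peak lists of 8 libraries, 4 at 37 °C and 4 at 39 °C, were used as deposited. Per the submitters' notes and the methods, reads were aligned to mm10 with Bowtie2 2.4.1, duplicates were removed with Picard 2.26.11 and SAMtools 1.15.1, and the authors called peaks per library with MACS3 3.0.0a7 (no control, q-value 0.05). The deposited columns used were position, summit and the −log10 of the q-value, which gave ranks within a list. The deposited fold enrichment, a ratio to a genome-wide background, was used in an alternative only, and the pileup signal of the authors and the −log10 p-value were not used. Depth was read from the file headers. The methods describe removal of blacklisted peaks, but peak numbers in the deposited lists run without a gap, so whether these lists were filtered is not known, and list lengths and ranks would move with it.

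Overlapping peaks (1 bp or more) were merged, and regions called in at least 2 libraries were kept (84777). Regions called in all 8 libraries were ranked from 0 to 100 in each library and compared with limma 3.58.1 (R 4.3.3, trend) over 44861 regions. Presence was compared by Fisher's exact test, and widths, peak numbers and covered lengths by two-sided exact permutation tests (numpy 2.4.6, scipy 1.17.1), all with Benjamini-Hochberg adjustment over every gene or region tested. The limma step was tested on simulated data. Members and lists were chosen with earlier results of these data known. Covered length was chosen as a measure after seeing the data, as were its alternatives. Values in full were given for genes whose promoter calls differed by 2 or more libraries, whose promoter region passed limma, for types I, III, IV and VI and for the 3 highest and lowest promoters, and regions were named by best rank or smallest p, 4 in each direction. Other genes given in full were chosen after their values were seen. Alternatives changed the peak threshold, list length, flank, promoter distance, region building, rank scale and libraries. Promoter sequences were from RefSeq (GRCm38.p6), which is the mm10 assembly.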

Additional observations from a re-analysis of the deposited data

Results flagged for a closer look

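In groups of 4 libraries, 2 values of 16 examined lay apart from the other 3 by Dixon's 95% criterion, which chance alone meets in about 1 group in 20. Replicate 4 at 39 °C had 235 peaks in the collagen loci, against 274 to 280 in the other libraries at 39 °C, and its list was also the shortest, with 54845 peaks. Set against the length of its list it had 42.8 peaks per 10000, within the range of the others. Replicate 2 at 37 °C had a promoter peak at 29 collagen genes where the other 3 libraries at 37 °C each had 30, a difference of 1 gene.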

How the results depend on the processing

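The 2 deep libraries at 37 °C and the unequal lists limit every comparison of presence, and no collagen gene passed adjustment for presence, width, peak number or covered length in all 8 libraries. Leaving out the 2 deep libraries leaves 2 against 4 (the 6 shallower libraries), where the smallest exact p is 0.0667. Of the settings compared, 319 values kept their direction and side of the threshold, 32 kept the direction but not the call (all covered lengths of named genes with fewer libraries, at exact p of 0.0571 or 0.0667, except 1 Col18a1 region), 25 moved by more than their limit and 1 reversed (Col3a1 covered length, 0.409 kb larger at 39 °C in the 6 shallower libraries). Where values changed, the cause was not tested.

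Promoters called in 4 libraries at 37 °C and 0 at 39 °C numbered 1 in place of 0 with −log10 q of at least 5 and with equal numbers of peaks, and 0 to 1 with a library left out. The difference in collagen-locus peaks, -83.0, was -145 with 50 kb flanks and -7.00 with equal numbers of peaks, and per 10000 peaks it went from -0.715 to -2.97 with 50 kb flanks, -0.331 with no flank, -1.09 with −log10 q of at least 5, -1.28 with equal numbers of peaks, and -1.0 to -0.364 with a library left out (-0.364 without replicate 3 at 39 °C). Regions restricted to 37 °C numbered 15 with no flank, 46 with 50 kb flanks, 10 with equal numbers of peaks, and 24 to 45 with a library left out (45 without replicate 3 at 37 °C). Those restricted to 39 °C numbered 5 with windows around summits, 1 with −log10 q of at least 5, 5 with equal numbers of peaks, and 2 to 7 with a library left out (7 without replicate 4 at 39 °C). Ranked within whole lists, 131 collagen regions were higher at 37 °C and 3 at 39 °C. With a library left out the limma counts ran from 54 to 69 at 37 °C and from 33 to 37 at 39 °C. Genes with more peaks at 37 °C numbered 8 with equal numbers of peaks, beside 4.73% of coding genes. Genes with more peaks at 39 °C numbered 0 with −log10 q of at least 5, 2 with equal numbers, 3 in the 6 shallower libraries and 1 to 4 with a library left out (4 without replicate 4 at 39 °C). Wider promoters at 37 °C numbered 7 to 15 with a library left out (15 without replicate 3 at 37 °C, 11 without replicate 1 at 39 °C), and more covered length was found at 39 °C in 1 gene in the 6 shallower libraries. More covered length at 37 °C was found in 18 genes with −log10 q of at least 5, with equal numbers of peaks and in the 6 shallower libraries, beside 33.1%, 29.5% and 37.3% of coding genes, and in 18 to 27 with a library left out (27 without replicate 3 at 37 °C, beside 59.8%).

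With the replicate number as a block (replicate block), 63 regions ranked higher at 37 °C and 37 at 39 °C. Same-numbered libraries correlated at 0.101, -0.0855, 0.108 and -0.0672 in their deviations from the group means. Libraries of unlike number correlated at -0.166 to 0.139. With 4 libraries per group, these values cannot show whether same-numbered libraries were prepared together, which the labels do not say.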
